A study of Bos taurus with 46 samples.

Results

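The genes described here were clearly expressed in the blood leukocytes of some pregnant heifers and close to absent in those of others. They were chosen by their D55 values: a gene had to reach a normalised read count (CPM, the reads of the gene scaled to all reads on genes of the library) of at least 5 in 3 or more heifers and stay at 0.5 CPM or less in 3 or more. Of 30675 RefSeq genes in the count table, 58 met this rule, and 4 were left out by symbol because they belong to gene families not described here (*BOLA-DQA2*, *BOLA-DQA5*, *BOLA-DQB* and *WC1-8*), which leaves 54 genes. A level of at least 5 CPM is called on, a level of 0.5 CPM or less off, and a level between these limits between. Because the D55 values made the choice, they are given as a description without a test, as are differences between the days, which have the D55 values as one arm. The tests concern D105 levels, which the rule did not use. Nearest to the limits on the inner side were *LOC507787*, whose D55 level in the third heifer from the top was 5.001 CPM, and *LOC101907747*, whose level in the third heifer from the bottom was 0.489 CPM. On the outer side were *LOC790181*, whose level in the third heifer from the top was 4.91 CPM, and *WDR31*, whose level in the third heifer from the bottom was 0.501 CPM.

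The data are 46 RNA-seq libraries of blood leukocytes, taken from the buffy coat after red cell lysis, 1 at D55 and 1 at D105 of pregnancy from each of 23 Angus crossbred heifers. The heifers carried fetuses conceived by artificial insemination (AI, n = 8), fetuses from in vitro produced embryos of normal weight (IVP-Normal, n = 6), or in vitro produced fetuses above the weight limit for large offspring syndrome (IVP-LOS, n = 9). All heifers had been synchronized with progesterone inserts and prostaglandin, and the in vitro embryos came from Brahman semen and Angus or Angus-cross oocytes. The study asked whether maternal blood shows which pregnancies carry an overgrown fetus, and the same heifers bled on both days allow a further question, namely whether a gene that is silent in one animal stays silent in that animal. Reads on genes ranged from 18692653 to 24502012 per library, so that 0.5 CPM corresponds to 9.35 to 12.3 reads and 5 CPM to 93.5 to 122.5 reads. Libraries carried 1 of 2 set names in the labels: every D55 library is named New, as are those of IVP-Normal heifers on D105, whereas BACKUP names the remaining D105 libraries, from AI and IVP-LOS heifers. Day and set can therefore be told apart in the IVP-Normal heifers only, and on D105 set and group cannot be told apart in comparisons with IVP-Normal.

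Leukocytes of different animals of one species express largely the same genes, but a few genes differ from animal to animal like a switch. Genes of large immune families are known for this: the number of gene copies, the alleles carried and the sequence that drives transcription vary between animals, and cattle have expanded families of UL16-binding proteins, beta-defensins and leukocyte surface receptors. A gene can also look switched on because the blood sample holds more of a cell type that expresses it, and in such bulk samples fewer cells of a type and less RNA per cell cannot be told apart. Bleeding the same animal again shows whether a state is kept for weeks. It cannot tell a state of the gene from a cell composition that the animal also keeps.

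The label of genes on in some heifers and off in others describes the extremes of the D55 levels. Of 1242 pairs of gene and heifer on D55, 365 (29.4%) were on, 402 (32.4%) were off and 475 (38.2%) lay between. A gene was on in 3 to 17 heifers, with a median of 5.5, and off in 3 to 20, with a median of 5. In 98 of the 402 off values no read was counted, and an off value held at most 12 reads. Leukocyte markers were expressed in every library, with *PTPRC*, the pan-leukocyte antigen CD45, at 1790 to 2468 CPM on D55 and at 1723 to 2402 CPM on D105. By groups, 28.0% of the values of the AI heifers, 30.9% of those of the IVP-Normal heifers and 29.6% of those of the IVP-LOS heifers were on.

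The D55 library of AI heifer 517 stood apart from the other 45 libraries. Over the 45 genes that were not called between days (9 others were), every library was nearer to the other library of its own heifer than to any library of another heifer on the other day, with root mean square distances on log2(CPM + 0.5) of 0.272 to 1.65 within heifers. The highest of these was that of heifer 517, and the next highest was 1.04. The choice of genes favours the match within heifers. It made differences between heifers large on D55, and genes called between days were left out. When a weighted sum of the heifer's own other library and 1 library of the same day was allowed, the distance of the D55 library of heifer 517 fell to 0.358 with 30% of the D55 library of IVP-Normal heifer 519, which made it 4.62 times smaller. In the other 45 libraries the best such sum reduced the distance by at most 1.36 times. *LOC100847574* showed the pattern plainly, with 52.6 CPM on D55 and 0.269 CPM on D105 in heifer 517 against 151 and 131 CPM in heifer 519. The ratio of the D55 level of heifer 517 to that of heifer 519 was 32.3% for *LOC107131187*, 32.7% for *LOC112441545*, 33.4% for *RBM44*, 34.9% for *LOC526163* and 34.9% for *LOC100847574*, and heifer 517 was at or below 0.538 CPM in all 5 on D105. It was 26.1% for *LOC100337129*, 28.4% for *LOC112445621* and 47.3% for *LOC521568*, which lay between the limits in heifer 517 on D55 and at 0, 0.0448 and 0.986 CPM on D105. The left-out class II genes *BOLA-DQB* and *BOLA-DQA5* showed the same, at 117.7 and 69.8 CPM on D55 and with no read on D105. How this arose was not tested. The main counts and the values of some genes are given with and without heifer 517, and the other values include it.

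**Figure D1:**
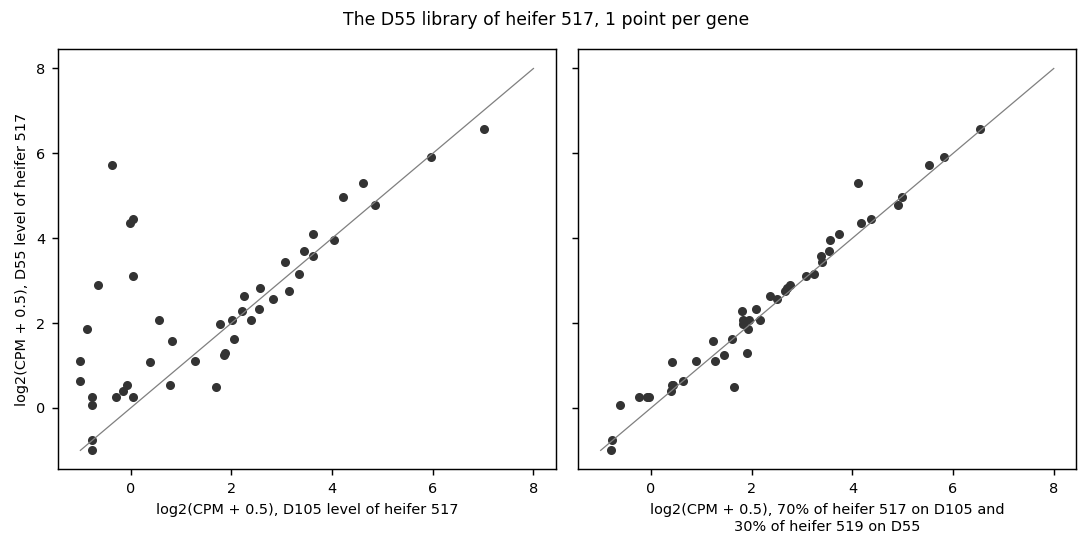
D55 level of 45 genes in heifer 517 on the vertical axis, against its own D105 level (left) and against a sum of 70% of its own D105 level and 30% of the D55 level of heifer 519 (right), all as log2(CPM + 0.5). Several genes near the bottom of the scale on D105 stand far above the diagonal on the left and lie near it on the right, where the root mean square distance was 0.358 in place of 1.65.

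Most heifers kept their state. Of 767 on or off values on D55, 620 (80.8%) had the same state on D105, 35 (4.56%) switched to the opposite state and the rest moved to the range between. Of 365 on values 304 (83.3%) remained on and 4 (1.10%) were off on D105, and of 402 off values 316 (78.6%) remained off and 31 (7.71%) were on. The share of states kept was 81.5% in the median heifer, with an SD of 8.22 percentage points over the 23 heifers, from 65.4% in heifer 517 to 100% in IVP-Normal heifer 688. Of the 35 switches, 30 fell in 9 genes that were higher on D105 in the fit over all genes, described below. This split of the genes was made by the change between days, which itself decides where switches are counted, so the shares on either side are a description. In the other 45 genes, 575 of 675 states (85.2%) were kept and 5 switched, 3 of these 5 in heifer 517. Without that heifer, 1 of 298 on values of these 45 genes was off on D105 and 1 of 355 off values was on, and both belonged to *COL1A1*. The 360 values between the limits in these genes also tended to stay there, with 291 (80.8%) between on D105. Of the 98 off values without a read, 95 were off on D105, 58 of them again without a read, and 1 was on.

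**Figure D2:**
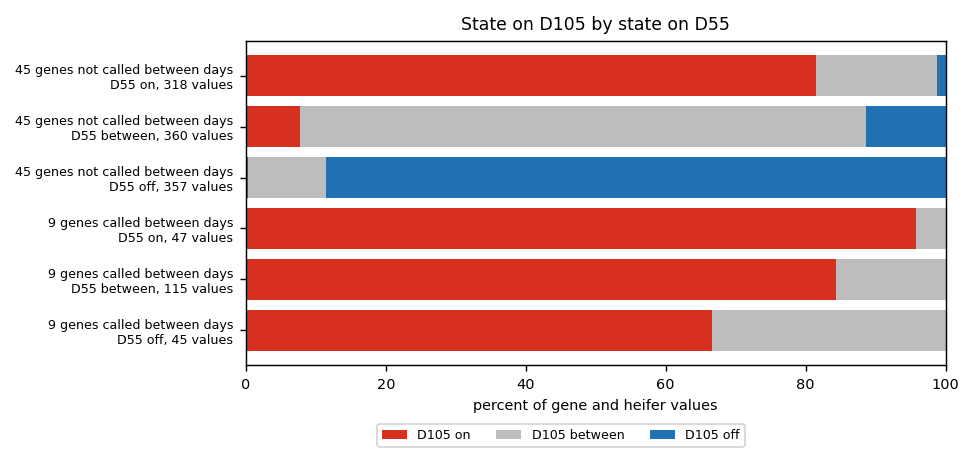
Percent of gene and heifer values that were on (at least 5 CPM), between, or off (at most 0.5 CPM) on D105, by the state on D55, for the 45 genes not called between days and the 9 genes called. In the upper 3 bars most values keep their state, and in the lower 3 bars off values are gone on D105.

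Whether the D105 levels followed the D55 levels across heifers was tested for each gene by 100000 permutations of the heifer labels, with the rank correlation as the statistic and FDR taken over all 11543 genes that reached 5 CPM in 3 or more D55 heifers. Of the 54 genes, 45 (83.3%) passed at an FDR of 0.05, beside 31.0% of all genes tested. The background genes were not matched for their spread between heifers, which the rule made large in the 54. The smallest p that these permutations can give (1e-05) was reached by 27 of the 45. The 9 genes that did not pass were *COL1A1*, *GRO1*, *GZMB*, *LOC100848752*, *LOC101908144*, *RBM44*, *SLC16A12*, *TCN1* and *TGM3*. Of these 9, 7 were among the 9 genes higher on D105, and the others were *COL1A1* and *RBM44*. Without heifer 517, 43 of 52 testable genes passed, beside 29.7% of all genes tested. In 43 of the 54 genes, every heifer that was on on D55 had a higher D105 level than every heifer that had been off, and without heifer 517 this held in 46 genes. The 8 genes whose groups still overlapped were *COL1A1*, *GZMB*, *LOC100848752*, *LOC101908144*, *SLC16A12*, *TCN1*, *TGM3* and *ZFYVE28*. No such share was taken over the background genes, so the counts of genes without overlap are a description. Small groups separate more easily, and some genes had only 3 on and 3 off heifers, such as *LOC101906837*.

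**Figure D3:**
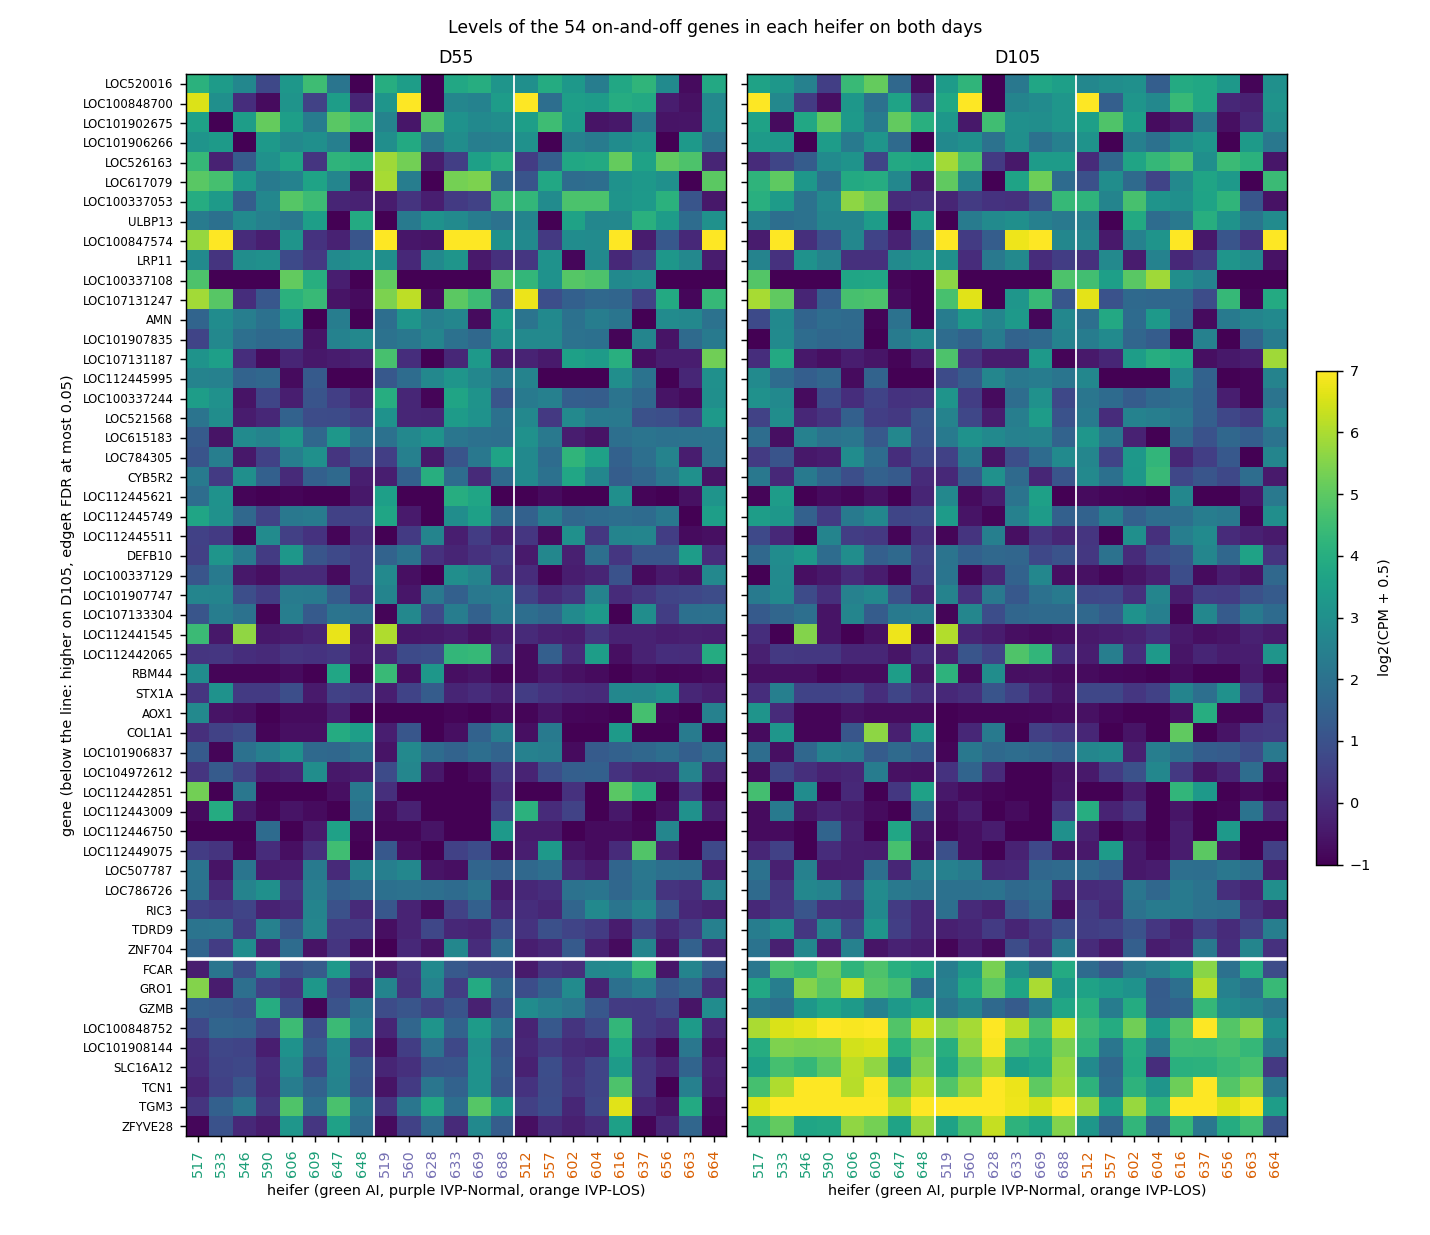
Level of the 54 genes (rows) in each of the 23 heifers (columns, grouped as AI, IVP-Normal and IVP-LOS) on D55 and D105, as log2(CPM + 0.5), with colours limited to the range from -1 to 7. Above the horizontal white line most of the D55 pattern returns on D105, with exceptions in heifer 517 (first column) and *COL1A1*, and the 9 genes below the line are brighter on D105 in nearly every heifer.

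*LOC100337108*, a protein-coding gene without a name, was the only one of the 54 in which all 23 heifers had a definite state on D55 and all 23 kept it. In the 11 heifers that were on, D55 levels ran from 6.49 to 33.6 CPM with a median of 27.0, and in the 12 heifers that were off from 0 to 0.301 CPM. On D105 the 11 heifers held 5.40 to 58.0 CPM with a median of 23.2, and the 12 heifers 0 to 0.0449 CPM, so that the groups did not overlap. The D105 difference was 5.27 on log2(CPM + 0.5), with an exact permutation p of 7.40e-07, the smallest that 11 against 12 heifers allow. It was 5.21 without heifer 517. In 11 of the 12 off heifers no read was counted on either day. On heifers came from each group, so that the state cut across the treatments.

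*LOC112446750*, a long noncoding RNA beside the *WC1* genes of gamma delta T cells, was on in the AI heifer 647 at 11.4 CPM, in the IVP-Normal heifer 688 at 9.28 CPM and in the IVP-LOS heifer 656 at 5.88 CPM. The same 3 heifers had 12.8, 7.62 and 9.63 CPM on D105. The 19 heifers that were off held at most 0.252 CPM on D55 and at most 0.317 CPM on D105, with a difference of 4.14 on the log2 scale (exact permutation p = 0.000649, the smallest possible). Heifer 590 was the only animal between the limits, with 2.98 CPM on D55 and 2.51 CPM on D105. One library of each of 3 groups was high on both days and the groups of on and off heifers lay far apart. How the counting treated strand is not given in the sources used here, so reads of a gene on the opposite strand cannot be told apart.

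*AOX1*, the aldehyde oxidase that oxidizes aldehydes and nitrogen heterocycles, was on in 3 heifers and off in 20. The IVP-LOS heifer 637 had 24.5 CPM on D55 and 15.4 CPM on D105, the AI heifer 517 had 6.29 and 8.29 CPM, and the IVP-LOS heifer 664 had 5.28 and 0.713 CPM. The 20 off heifers lay between 0 and 0.301 CPM on D55 and between 0 and 0.483 CPM on D105. The D105 difference was 3.27 (exact permutation p = 0.000565), and 2.93 with only 2 on heifers when heifer 517 was left out (exact permutation p = 0.00433). Of the 3 on heifers, 2 stayed on, and heifer 664 remained just above every off heifer.

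*RBM44* codes for an RNA-binding protein known from the bridges between germ cells. It was on in heifers 519, 647, 628 and 517 with 20.7, 12.8, 8.91 and 6.93 CPM, and off in the other 19 with at most 0.2496 CPM. On D105 the first 3 heifers had 17.7, 10.5 and 7.11 CPM, heifer 517 had 0.134 CPM, and no other heifer was above 0.245 CPM. The D105 difference between the on and off heifers was 3.26 (exact permutation p = 0.000452), and 4.30 without heifer 517 (exact permutation p = 0.000649). Although 22 of 23 states were kept, the rank test did not pass (FDR = 0.155, and 0.252 without heifer 517). The other 19 heifers, all near 0, carry most of the ranks of that test.

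*AMN* codes for amnionless, which forms the vitamin B12 receptor of the gut and kidney with cubilin. It was on in 9 heifers, from 5.09 to 10.1 CPM with a median of 6.82, and off in heifers 609, 637, 648 and 669, 3 of which had no read and the other 0.0933 CPM. On D105 the 9 heifers had 2.90 to 13.8 CPM with a median of 5.96, and the 4 heifers had 0.0452, 0.0857, 0 and 0.0459 CPM. The difference was 3.69 (exact permutation p = 0.00140, the smallest possible), and all 4 off heifers kept their state. These 4 heifers came from each of the 3 groups.

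*ULBP13* belongs to the UL16-binding proteins, ligands of the NKG2D receptor by which natural killer cells recognize stressed cells. Heifers 519, 557 and 647 had no read of it on D55 and no read on D105. The 13 on heifers had 5.10 to 16.4 CPM on D55 with a median of 7.74, and 3.05 to 15.8 CPM on D105 with a median of 6.82. The other 7 heifers lay between the limits on D55. The D105 difference of 3.90 had the smallest exact permutation p that 13 against 3 heifers allow (0.00179). Among the 46 libraries, then, the 6 libraries of these 3 heifers, 1 from each group, had no counted read of this gene. Whether reads of a divergent copy or allele went uncounted was not tested.

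*DEFB10*, a beta-defensin and thus an antimicrobial peptide, was more graded. It was on in heifers 663, 606, 533 and 557 at 10.2, 8.93, 8.56 and 6.03 CPM, and these had 11.7, 7.10, 6.98 and 3.57 CPM on D105. It was off in heifers 512, 602 and 633 at 0.2503, 0.321 and 0.392 CPM, and these had 0.726, 0.486 and 2.60 CPM on D105. The groups did not overlap, with a difference of 2.23 and the smallest exact permutation p for 4 against 3 heifers (0.0286), although 1 of the 3 off heifers was still off.

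*COL1A1*, the alpha 1 chain of type I collagen and a product of fibroblasts rather than of leukocytes, was the least settled of the genes not called between days, with 2 switches. On D55 it was on in heifers 647, 648 and 616 at 14.5, 10.7 and 9.87 CPM, and on D105 these had 0.314, 8.48 and 32.4 CPM. The 12 heifers that were off on D55 had 0 to 49.5 CPM on D105 with a median of 0.176, the highest being AI heifer 609, which had 0.126 CPM on D55. The groups overlapped, and the difference of 2.37 had an exact permutation p of 0.0637. Heifers 648 and 616 were thus on on both days, heifer 647 went from on to off and heifer 609 from off to on.

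**Figure D4:**
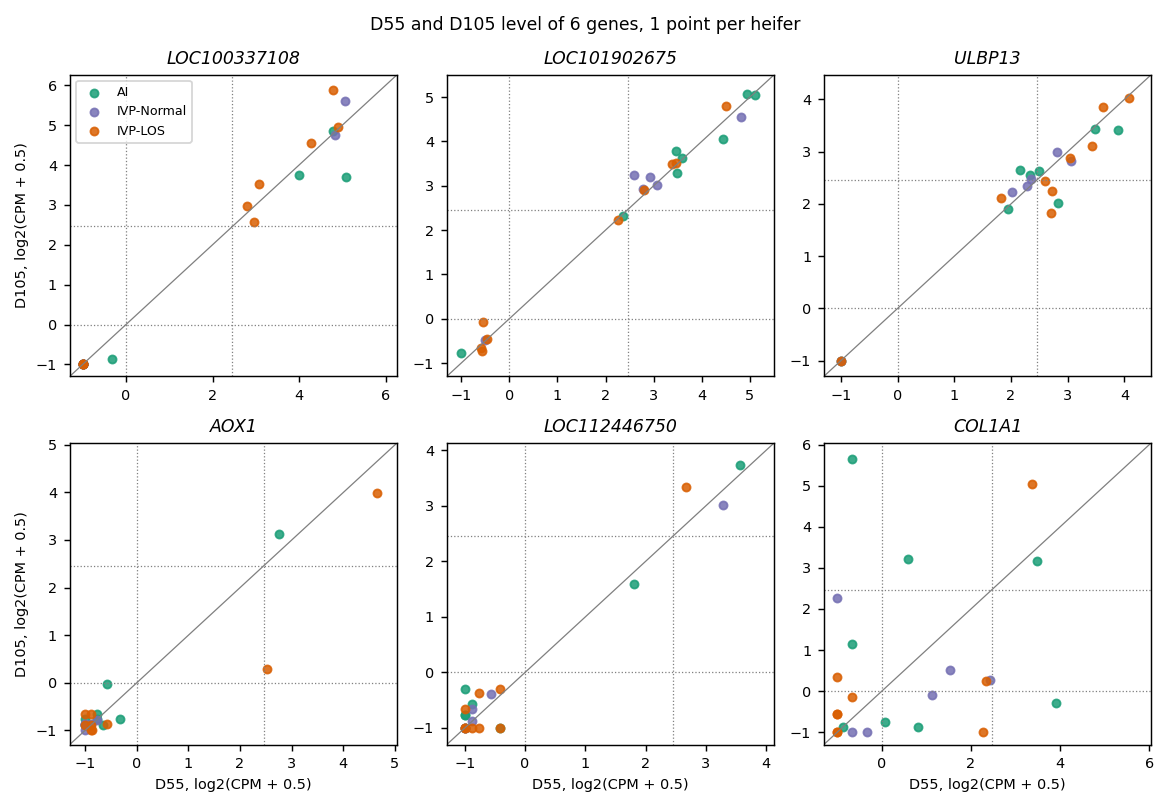
D105 level against D55 level of 6 genes as log2(CPM + 0.5), 1 point per heifer coloured by treatment group, with the diagonal in grey and the limits of 0.5 and 5 CPM dotted. In *LOC100337108*, *LOC101902675* and *ULBP13* the heifers form separate clusters on the diagonal, in *AOX1* and *LOC112446750* 3 heifers stand out, and in *COL1A1* points lie far from the diagonal on both sides.

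Several genes without a name repeated this behaviour, and 4 of them are given here because of their wide separation, chosen after their values were seen. *LOC101902675*, a pseudogene among the *GIMAP* genes of lymphocytes, was on in 15 heifers at 5.51 to 34.0 CPM and off in 6 at 0 to 0.222 CPM, and on D105 these held 7.03 to 33.3 CPM and 0.0877 to 0.449 CPM (difference 4.30, exact permutation p = 1.84e-05). *LOC112441545*, which lies among olfactory receptor genes, was on in heifers 647, 519, 546 and 517 at 106.2, 65.8, 50.9 and 21.5 CPM, and on D105 these had 110, 67.4, 45.2 and 0.538 CPM. Its 18 off heifers had at most 0.389 CPM on D105, and the D105 difference was 5.18 with heifer 517 and 6.70 without it. *LOC112449075* was on in heifers 637, 647 and 557 at 27.7, 23.1 and 9.61 CPM, and the same heifers had 31.1, 24.9 and 9.93 CPM on D105 while its 12 off heifers had at most 0.271 CPM. *LOC112442851*, annotated as a small nuclear RNA, was on in heifers 517, 616 and 637 at 39.1, 30.7 and 16.8 CPM, with 23.8, 18.7 and 9.43 CPM on D105, against at most 0.718 CPM in its 14 off heifers. In these 4 genes no heifer other than 517 left the on state.

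Some of the genes shared the same heifers. A pair was said to share a pattern when at least 3 heifers were on in both genes, at least 3 were off in both and no heifer was on in one and off in the other on D55. This held for 20 pairs, which joined into 3 sets, and none of the 4 genes left out by symbol shared such a pattern with a member. The D55 patterns are a description, and the D105 states of the same pairs were not used to find them.

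The first set held 6 protein-coding genes without a name, *LOC100337129*, *LOC100337244*, *LOC100847574*, *LOC112445621*, *LOC112445749* and *LOC521568*, none of which is placed on a chromosome in the RefSeq table. Heifers 519, 633, 664 and 669 were on in all 6. In *LOC112445621*, the clearest of them, 6 heifers were on, namely 533, 519, 633, 669, 616 and 664, with 7.38 to 15.5 CPM on D55 and 3.70 to 11.2 CPM on D105. The 16 off heifers had at most 0.215 CPM on D55 and at most 0.394 CPM on D105 (difference 3.58, exact permutation p = 1.34e-05). *LOC100847574* was on in 12 heifers at 6.51 to 191 CPM with a median of 89.0, and 11 of them stayed on. Its D105 difference was 4.36 (exact permutation p = 0.00143) and 4.82 without heifer 517 (exact permutation p = 0.000251). *LOC100337129* was on in heifers 633, 519, 664 and 669 at 7.22, 6.33, 6.13 and 5.46 CPM, which had 2.38, 3.78, 2.75 and 6.06 CPM on D105, against at most 0.498 CPM in its 13 off heifers (difference 2.54, exact permutation p = 0.000420). The differences were 2.83 for *LOC100337244* (exact permutation p = 0.000583), 3.93 for *LOC112445749* (exact permutation p = 0.0119) and 2.59 for *LOC521568* (exact permutation p = 0.00303), and in these 3 genes, too, the on and off heifers did not overlap on D105. On D105 opposite states were seen 5 times over the 7 pairs of this set, and 2 times without heifer 517.

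In the second set of unplaced genes, *LOC107131247*, *LOC520016* and *LOC617079* were off in the same 3 heifers, AI heifer 648, IVP-Normal heifer 628 and IVP-LOS heifer 663. In these heifers the 3 genes lay between 0 and 0.129 CPM on D55 and between 0 and 0.219 CPM on D105. *LOC107131247* was also off in heifer 647 and was on in 11 heifers at 14.1 to 107.5 CPM with a median of 29.7, all of which stayed on at 8.78 to 102.1 CPM (difference 5.85, exact permutation p = 0.000733, the smallest possible). *LOC617079* was on in 14 heifers at 5.30 to 61.5 CPM, all of which stayed on at 5.97 to 37.4 CPM (difference 4.68, exact permutation p = 0.00147). *LOC520016* was on in 17 heifers at 6.03 to 22.3 CPM, of which 16 stayed on and the other, heifer 633, had 4.10 CPM (difference 4.33, exact permutation p = 0.000877). On D105 opposite states were seen 1 time over the 2 pairs of this set, with and without heifer 517. That was in heifer 546, with 0.385 CPM of *LOC107131247* and 5.18 CPM of *LOC520016*. Members of gene families that resemble one another can share reads, so levels of single genes in these sets are uncertain where the counting could not separate copies.

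The third set was of another kind. *TGM3*, *TCN1*, *SLC16A12*, *ZFYVE28*, *LOC100848752* and *LOC101908144* were all on in heifers 616, 647 and 669 on D55, and all but *TCN1* also in heifer 606. Together with *FCAR*, *GRO1* and *GZMB* they formed the 9 genes that were called between days. All 9 were higher on D105 in edgeR's fit over 16487 genes, beside 11.9% of all genes called higher, and none of the 54 was called lower, beside 8.73% called lower. Since a gene had to be off in some heifers on D55 to be chosen, nothing is read from these counts, and the differences between days are given without p-values. In these 9 genes none of the 45 off values of D55 was off on D105, and 30 of them were on.

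*TGM3* codes for transglutaminase 3, which cross-links proteins. Its median was 3.18 CPM (0.0851 to 99.8) on D55 and 131 CPM (10.4 to 873) on D105, it was higher in 23 of 23 heifers, and the fitted log2 fold change was 4.40 ± 0.65 (SE, 46 libraries of 23 heifers). This fit, and those below unless a block is named, did not pair the libraries of a heifer. With the heifer as a replicate block the log2 fold change of *TGM3* was 5.44 ± 0.54. *TCN1* codes for haptocorrin, the vitamin B12 binder stored in neutrophil granules. Its median was 1.33 CPM on D55 and 44.7 CPM on D105, it was higher in 23 of 23 heifers, and the log2 fold change was 4.93 ± 0.60, with 700 CPM in heifer 637 as the highest D105 level. All heifers thus moved the same way in both genes, although the D105 levels still differed widely between them.

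*SLC16A12*, a monocarboxylate transporter, had a log2 fold change of 3.36 ± 0.44 and was higher in 22 of 23 heifers, the exception being heifer 604 with 1.07 CPM on D55 and 0.535 CPM on D105. *ZFYVE28*, a regulator of growth factor receptors on endosomes, had one of 3.18 ± 0.50 and was higher in 23 of 23 heifers. *LOC100848752* and *LOC101908144* had log2 fold changes of 3.79 ± 0.46 and 3.72 ± 0.47, and each was higher in 23 of 23 heifers. Of the 11 heifers that were off for *ZFYVE28* on D55, 8 were on on D105, the most switches of any of the 54 genes, followed by 6 of 8 for *LOC101908144* and 4 each for *TCN1* and *TGM3*. The D105 levels of the heifers that were on and off on D55 overlapped in all 6 genes, with on heifers higher by 1.32 in *TGM3*, 0.40 in *TCN1*, 1.49 in *SLC16A12*, 1.11 in *ZFYVE28*, 1.496 in *LOC100848752* and 0.87 in *LOC101908144* on log2(CPM + 0.5). Exact permutation tests of these differences gave p = 0.252 for *TGM3*, p = 0.563 for *TCN1*, p = 0.286 for *SLC16A12*, p = 0.118 for *ZFYVE28*, p = 0.1 for *LOC100848752* and p = 0.212 for *LOC101908144*.

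*FCAR* codes for the Fc receptor of immunoglobulin A on myeloid cells. Its median was 1.45 CPM on D55 and 9.52 CPM on D105, it was higher in 21 of 23 heifers, and the log2 fold change was 2.17 ± 0.48. The 7 on heifers had 5.24 to 47.2 CPM on D105, and the off heifers 517, 519, 512 and 656 had 3.99, 4.70, 2.99 and 3.49 CPM (difference 2.19, exact permutation p = 0.00909). Of the 9 genes, *FCAR* and *ZFYVE28* passed the permutation test of ranks across heifers (FDR = 0.0117 and FDR = 0.0253). *GRO1*, a chemokine that attracts neutrophils through *CXCR2*, had medians of 2.33 and 12.6 CPM and was higher in 20 of 23 heifers, with a log2 fold change of 2.27 ± 0.49. Its on and off heifers did not overlap on D105 (difference 2.32, exact permutation p = 0.0238), nor without heifer 517 (difference 2.40, exact permutation p = 0.0357). Its highest D55 level, 45.3 CPM, was that of heifer 517, which had 13.4 CPM on D105. *GZMB*, the granzyme B of cytotoxic lymphocytes, had medians of 1.61 and 5.52 CPM and was higher in 20 of 23 heifers, with a log2 fold change of 1.60 ± 0.35, and its D105 levels in the on and off heifers overlapped (exact permutation p = 0.400).

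Summed markers of granulocytes were also higher on D105 in most heifers, although single markers differed. The summed level of the 4 of 5 listed markers found by symbol (*CXCR2*, *S100A8*, *S100A9* and *MMP9*) was 104.1 to 456 CPM on D55 and 61.8 to 4644 CPM on D105 and was higher in 19 of 23 heifers, and *CXCR2* and *MMP9* were higher in 23 of 23. The 3 of 5 eosinophil markers found had a sum of 18.0 to 62.4 CPM on D55 and 22.1 to 181 CPM on D105, higher in 22 of 23 heifers. *SIGLEC8* was higher in 20 heifers and *CCR3* in 13, with *CCR3* medians of 22.3 CPM on D55 and 21.9 CPM on D105. The granule gene *PRG3* was higher in 20 heifers but near 0 on both days (at most 1.73 CPM). The 5 basophil or mast cell markers had a sum of 2.86 to 15.8 CPM on D55 and 2.60 to 20.0 CPM on D105, higher in 17 of 23 heifers. Among them *MS4A2* was higher in 23 heifers, *GATA2* in 22 and *CPA3* in 18. *FCER1A*, which had the highest median of the 5 on both days, was higher in only 7 heifers, and *HDC* in 11. The *FCER1A* median was 6.96 CPM on D55 and 5.37 CPM on D105. The monocyte sum was higher on D105 in 12 of 23 heifers, the T cell sum in 9, the plasma cell sum in 7, the natural killer cell sum (which includes *GZMB*) in 6, the platelet sum in 6, the B cell sum in 4 and the erythroid sum in 4. The part of these markers in the result was not tested. On D105 the lowest neutrophil sums were those of heifers 604, 664 and 557, which also had the 3 lowest *TGM3* and *TCN1* levels. The D105 libraries of heifers 604 and 664, which carried the largest fetuses of the study, had the fewest reads on genes (18692653 and 19641136). They also had the highest shares of reads on no gene (32.4% and 30.4%). Whether this bears on the low levels was not tested. In the IVP-Normal heifers, whose libraries are of set New on both days, 7 of the 46 genes fitted were called higher on D105, beside 2.27% of all genes, and none lower, beside 0.184%. *FCAR* and *GRO1* had log2 fold changes of 2.83 and 2.22 there and were not called. With the heifer as a replicate block 9 of 46 were called higher, beside 4.49%, and none lower, beside 1.01%.

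**Figure D5:**
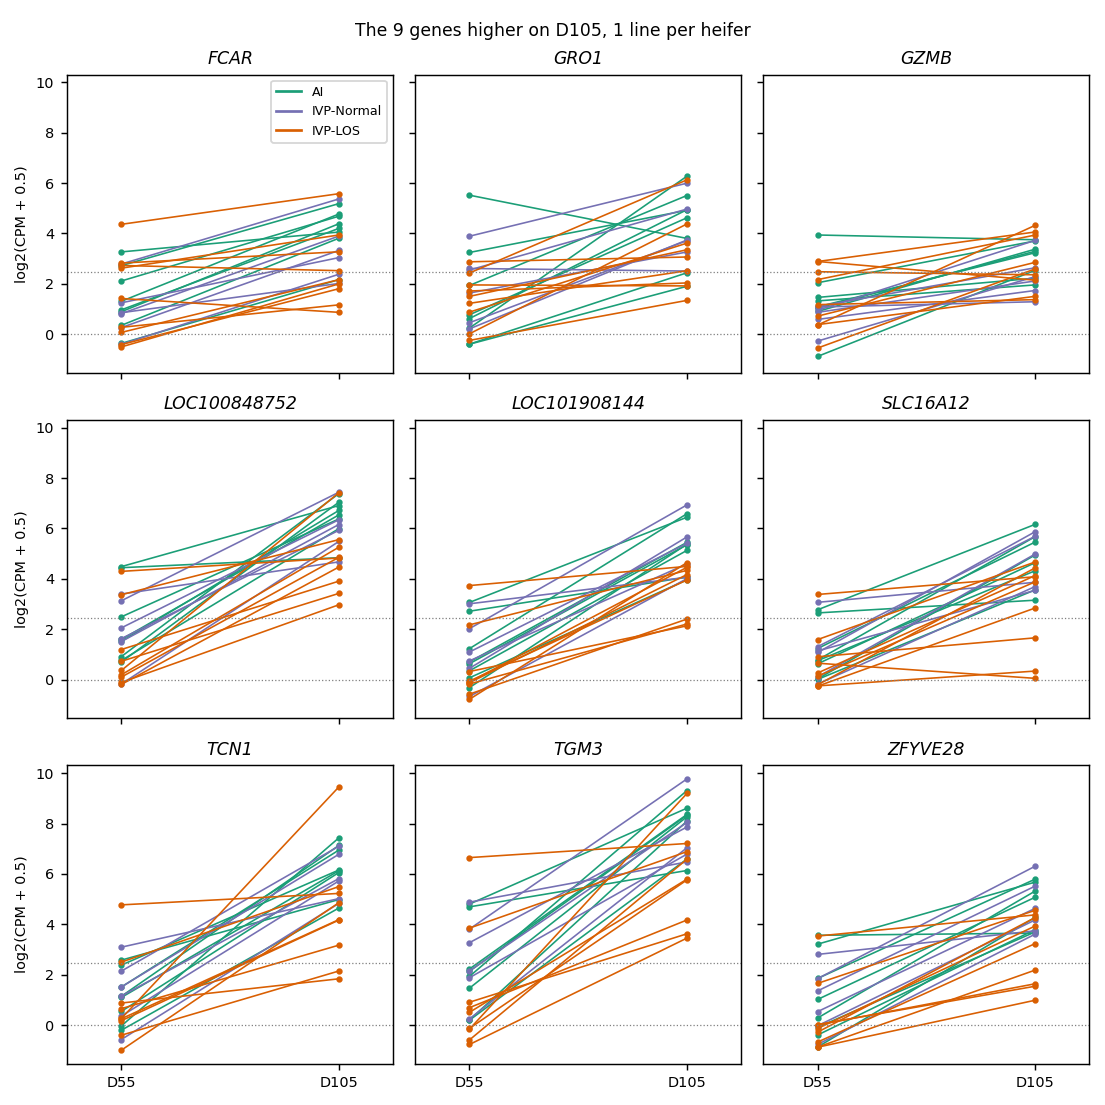
Levels of the 9 genes called higher on D105 as log2(CPM + 0.5), 1 line per heifer from D55 to D105, coloured by treatment group, with the limits of 0.5 and 5 CPM dotted. Nearly all lines rise, and the 3 lowest D105 levels of *TGM3* and *TCN1* are those of IVP-LOS heifers 557, 604 and 664.

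With the heifer as a replicate block in all 23 heifers, which compares each heifer with itself, 10 of the 54 genes were called higher on D105, beside 14.6% of all genes, and 2 lower, beside 17.1%. The 3 genes added by the block had log2 fold changes under 1 in size, namely 0.68 ± 0.20 for *DEFB10*, -0.55 ± 0.20 for *LOC104972612* and -0.63 ± 0.19 for *LOC784305*. These counts, too, have the D55 values as one arm.

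No difference between the treatment groups was called on D105. The quasi-likelihood test called 0 of the 44 genes tested between AI and IVP-Normal, 0 of 43 between AI and IVP-LOS and 0 of 45 between IVP-Normal and IVP-LOS, beside 0% of all genes called in each. At an unadjusted p under 0.05 stood 2, 6 and 3 of them, beside 9.57%, 5.76% and 3.24% of all genes. DESeq2's likelihood ratio test called 0, 0 and 1 of the 54, the last being *RBM44* (lower in IVP-LOS), beside 0.0192%, 0.251% and 0.0811% of all genes with an adjusted p. *RBM44* was on on D105 in 2 of 6 IVP-Normal and 0 of 9 IVP-LOS heifers. It was not among the 45 genes that edgeR tested there. Without the expression filter edgeR called 0 of the 54 in that comparison, with a smallest FDR of 0.855. *LOC112442065*, annotated as a variable segment of an antigen receptor, had the smallest unadjusted p between AI and IVP-Normal, with a log2 fold change of 4.03 ± 0.90 toward IVP-Normal and an FDR of 0.514 in edgeR. It was on on D55 in IVP-Normal heifers 669 and 633 at 20.1 and 19.1 CPM and in IVP-LOS heifers 664 and 604 at 14.8 and 10.5 CPM, and these had 18.7, 27.1, 8.60 and 9.58 CPM on D105. No AI heifer exceeded 0.746 CPM on either day. *TDRD9*, a helicase of the pathway that silences transposons in the germ line, was on in AI heifers 609 and 590 and in IVP-LOS heifer 664, with 5.87, 5.19 and 5.15 CPM on D55 and 8.58, 5.80 and 4.84 CPM on D105, and its edgeR FDR between AI and IVP-Normal was 0.514. Both genes differed between single heifers in the same way on both days.

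The 54 genes shared features that the rule did not use. Symbols that begin with LOC, given to genes without an established name, made up 64.8% of them (35) and 7.83% of the 11543 background genes. Of the 50 found in the RefSeq table of assembly ARS-UCD2.0, 12 (24.0%) are not placed on a chromosome, beside 0.321% of the 10913 background genes found there. Protein-coding genes made up 88.0% of these 50 (44) and 97.4% of the background, and the others were 3 long noncoding RNAs, 1 pseudogene, 1 small nuclear RNA and 1 variable segment. No test was made of these shares.

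The neighbours of the 38 placed genes were read from the order of genes in that table, and those named here were picked after they were seen, with no share over other genes to set them against. Other genes, such as *COL1A1*, *ZFYVE28*, *STX1A*, *RIC3* and *ZNF704*, had no near neighbours of the families named below. The families named below are not all that were seen, since for example *RIC3* lies near *NLRP10* and *SLC16A12* near *IFIT5*. *FCAR* lies beside *NCR1* and the *KIR* genes, with *LOC100848752* 10 genes away. *LOC526163* lies among the *CD300* genes, *LOC112445995* among the guanylate-binding protein genes, *LOC101902675* among the *GIMAP* genes, *LOC112446750* beside *WC1-8*, and *LOC101906266* and *LOC112441545* among olfactory receptor genes. *LRP11* lies near *ULBP21*, *AOX1* beside *AOX4* and *AOX2*, *GRO1* beside *CXCL2* and *CXCL3*, and *LOC101908144* near *gzmA* and *GZMK*. *LOC100337053* and *LOC784305* lie 6 genes apart, and on D55 6 heifers were on in both, 1 was off in both and none had opposite states, but 3 heifers had opposite states on D105. By symbol, 1 of the 54 belonged to xenobiotic metabolism (*AOX1*, 1.85% beside 0.321% of background genes), 1 to the defensins and cathelicidins (*DEFB10*, beside 0.0347%) and 1 to the zinc fingers (*ZNF704*, beside 2.15%). None had a symbol of the other families looked for, which made up 0.0260% (globins, guanylate-binding proteins) to 0.806% (ribosomal proteins) of the background. The 35 LOC symbols cannot match such a family, so these counts do not show that its genes were absent. *LOC112442065*, for example, is annotated as a variable segment of an antigen receptor.

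The remaining genes with a name all kept the order of their on and off heifers. *LRP11*, a receptor-related protein, was on in 12 heifers and off in 5, and on D105 these had 4.24 to 8.59 CPM and 0.153 to 0.519 CPM. *STX1A*, a syntaxin of vesicle fusion, was on in heifers 533, 656, 616 and 637 at 7.95, 7.35, 6.0 and 5.85 CPM, which had 5.0, 7.80, 5.61 and 3.26 CPM on D105. *CYB5R2*, a cytochrome b5 reductase, *RIC3*, a chaperone of acetylcholine receptors, and the zinc finger gene *ZNF704* had D105 differences of 2.88, 2.49 and 2.27. In each of these 5 genes the on and off heifers did not overlap on D105 and none switched.

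The other genes are known by LOC symbols only. *LOC100848700* was on in 15 heifers, and heifers 512, 560 and 517 had 151, 150 and 95.4 CPM on D55 and 186, 173 and 129 CPM on D105 while no other heifer exceeded 20.5 CPM on either day. *LOC526163* was on in 15 heifers at 7.82 to 57.5 CPM, 14 of which stayed on, the exception being heifer 517 with 20.1 and 0.493 CPM. *LOC107131187* was on in 8 heifers, 7 of which stayed on at 9.32 to 57.8 CPM. The genes *LOC100337053*, *LOC101906266*, *LOC101906837*, *LOC101907747*, *LOC101907835*, *LOC104972612*, *LOC107133304*, *LOC112443009*, *LOC112445511*, *LOC112445995*, *LOC507787*, *LOC615183*, *LOC784305* and *LOC786726* had D105 differences between 2.39 (*LOC101907747*) and 4.02 (*LOC100337053*), passed the rank test across heifers and had no overlap and no switch. Of them, *LOC101906837* and *LOC786726*, had 3 on and 3 off heifers, for which an exact test cannot give a p below 0.1.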

How the data were processed

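Leukocyte RNA of 23 heifers was sequenced on D55 and D105. The authors trimmed the reads, aligned them to ARS-UCD1.2 with HISAT2 2.1.0 and used HTSeq-count (union mode) to count them. What they deposited is an unnormalized table of counts for RefSeq genes, and a second deposited table holds counts on Ensembl genes. All summary lines of reads not assigned to a gene were left out. They held 36.5% to 48.6% of the reads of gene rows and summary lines together per library. Reads on no gene alone made up 19.6% to 32.4%. Depth bounds the precision of low values, and intervals of counting error were not added to them.

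CPM was the count divided by the library's reads on genes. Members and gene lists were chosen with earlier results of these data known. Heifers were grouped by the labels. The D55 and D105 libraries of a number come from the same animal, and p-values measure the spread between heifers, each with 1 library per day. Whether D105 levels followed D55 levels was tested by 100000 permutations of the heifer labels (NumPy 2.4.6). D105 levels of on and off heifers were compared as log2(CPM + 0.5) with a two-sided exact permutation test, with p-values not adjusted. Groups and days were fitted in edgeR 4.0.16 (TMM, filterByExpr with a minimum count of 10, quasi-likelihood F-test, Benjamini-Hochberg over all genes), and DESeq2 1.42.0 was an alternative. The main day fit over all heifers held treatment group and day and did not pair the libraries of a heifer. A fit with the heifer as a replicate block was an alternative. SE is the absolute log2 fold change divided by the square root of F. The tests were tried on simulated counts.

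Named are the 10 genes with a symbol other than LOC and the widest D55 gap (the rule asked for a product name, which the reference lacks), those with the most states kept (3, extended by ties) or switched, the shared-pattern sets and genes called between groups or days. Alternatives concerned scaling, limits, filters, heifers, library sets and tests. RefSeq names and gene order are those of ARS-UCD2.0, so no coordinates are given.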

Additional observations from a re-analysis of the deposited data

Results flagged for a closer look

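In 21 of 90 groups of 6 to 9 heifers tested, 1 heifer lay far from the others of its treatment group by Dixon's criterion. For normally distributed values chance flags about 1 group in 20. Most groups were levels of genes chosen for on and off heifers, so the 21 flags cannot be set against that rate. Of the 21 flags, 3 concern whole libraries. The distance of the D55 library of AI heifer 517 shrank 4.62 times when part of another library was added, against at most 1.18 in the other AI heifers; that of the D105 library of IVP-Normal heifer 628 shrank 1.36 times, and that of IVP-LOS heifer 602 by 1.15 times.

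The other 18 are D105 levels of single genes, as a state held by 1 heifer of a group would give. A lone high level was found for *AOX1* in AI heifer 517 (8.29 CPM, others at most 0.483) and IVP-LOS heifer 637 (15.4 CPM), *COL1A1* in IVP-LOS heifer 616 (32.4 CPM, others at most 0.764), *LOC112446750* in IVP-Normal heifer 688 (7.62 CPM) and IVP-LOS heifer 656 (9.63 CPM), *RBM44* in AI heifer 647 (10.5 CPM) and, within the off range, IVP-LOS heifer 663 (0.245 CPM), and *TCN1* in IVP-LOS heifer 637 (700.1 CPM, others 3.07 to 44.7). AI heifer 533 alone was high in *LOC100337129* (6.54 CPM), *LOC100847574* (161 CPM) and *LOC112445621* (10.3 CPM). A lone low level was found for *AMN* in IVP-Normal heifer 669 (0.0459 CPM) and IVP-LOS heifer 637 (0.0857 CPM), *FCAR* in AI heifer 517 (3.99 CPM, others 13.51 to 35.8), *LOC112445749* in IVP-LOS heifer 663 (0.0409 CPM), and *ULBP13* with 0 CPM in AI heifer 647, IVP-Normal heifer 519 and IVP-LOS heifer 557.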

How the results depend on the processing

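The number of genes that meet the rule depended on its limits: 13 with 10 and 0.25 CPM, 228 with 2 and 0.5 CPM, 108 with 2 or more heifers in each state and 12 with 5 or more. It was 73 on the D105 libraries, of which 36 were among the 54 (66.7% of the D55 list and 49.3% of the D105 list), and 49 on the Ensembl table with no symbol left out, of which 39 followed their D55 level beside 22.9% of the Ensembl genes tested (an alternative chosen after seeing the data). Leaving out 1 heifer at a time gave 39 to 45 genes that followed their D55 level, with 39 of 49 testable genes without heifer 637, and 80.1% to 81.7% of states kept. In the 6 heifers of the D105 set New alone 0 genes followed, since permutations of 6 heifers cannot give a p below 0.00278 and 10911 genes were tested. With a single D105 limit midway between 0.5 and 5 CPM on a log scale, 92.7% of states counted as kept. DESeq2 called 1 gene (*RBM44*) between IVP-Normal and IVP-LOS, which the expression filter had left out of the main edgeR fit. Without that filter edgeR called 0. The 54 genes paired by heifer gave 12 calls between days with the heifer as a replicate block and 9 without it, and 9 against 7 in the IVP-Normal heifers alone; the block changed no other call. The day comparison without heifer 517, and without heifers 604 and 664, both chosen after seeing the data, called 9 genes each. In the IVP-Normal heifers alone, without the block, *FCAR* and *GRO1* had log2 fold changes of 2.83 and 2.22 and were not called. The planned repeat of the states on the Ensembl table was not run, since its identifiers are not paired with names. A gene with about 10 reads per library is near the off limit, and differences between off heifers were not read.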
